A study of Mus musculus with 12 samples.

Results

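The genes described here are 9 members of the oxidative stress response controlled by the transcription factor Nrf2: Nfe2l2, Nqo1, Hmox1, Gclc, Gclm, Txnrd1, Srxn1, Slc7a11 and G6pdx. They were chosen by symbol, as 9 of the 55487 gene IDs in the deposited table, and all 9 were among the 19890 genes with enough counts to be tested. The study sequenced RNA of whole kidneys at postnatal day 15 (P15) to compare kidneys that lose the centrosomal gene Cep120 with cystic kidneys that lose the polycystic kidney disease gene Pkd1. The 12 libraries formed 4 groups of 3: Hoxb7-Pkd1 knockout (Pkd1 KO, titled homo), their controls (Pkd1 control, titled het), Hoxb7-Cep120 knockout (Cep120 KO, titled homo) and their controls (Cep120 control, titled het). The genotype label of the het libraries is WT, and the alleles they carry, Cre included, were not given in the sources used here. Hoxb7 drives recombination in the ureteric bud and the collecting ducts that grow from it, so the other cells of a knockout kidney keep the targeted gene. Nothing in the labels says that replicates were different mice, so p-values measure only the spread between libraries, which may be technical. Cep120 controls 1 and 2 were the closest pair within a group, with a mean chi-squared per gene of 5.58. Every other pair within a group had 27.2 to 70.7. Whether these controls were separate mice was not tested.

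Nrf2, the product of Nfe2l2, is bound in the cytoplasm by Keap1, which hands it to a Cul3 ubiquitin ligase for destruction. Oxidants and electrophiles modify Keap1, Nrf2 then enters the nucleus, pairs with a small Maf protein and binds antioxidant response elements beside its target genes. These targets make glutathione (Gclc, Gclm, Slc7a11), supply NADPH (G6pdx), degrade haem (Hmox1), reduce quinones (Nqo1) and keep thioredoxin and peroxiredoxins reduced (Txnrd1, Srxn1), and in the kidney they act chiefly in tubules exposed to toxic and ischaemic injury.

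The letters of the antioxidant response element core, TGACNNNGC, were looked for on both strands of RefSeq promoter windows on GRCm38.p6, which run from 250 bases before to 50 bases after a gene's start. A window was at hand for 7 of the 9 genes, and the letters stood in 5 of these 7 (71.4%), against 3781 of the 27025 mouse genes with a window (13.99%). The match is a description of letters and is no measured binding site. The 250 bases before the start of Nfe2l2, Gclm and G6pdx, the genes whose difference between the lines passed the test and whose window holds the letters, are shown 5′ to 3′ on the gene's strand with the match in capitals.
Nfe2l2 (chr2:75704664-75704913, minus strand): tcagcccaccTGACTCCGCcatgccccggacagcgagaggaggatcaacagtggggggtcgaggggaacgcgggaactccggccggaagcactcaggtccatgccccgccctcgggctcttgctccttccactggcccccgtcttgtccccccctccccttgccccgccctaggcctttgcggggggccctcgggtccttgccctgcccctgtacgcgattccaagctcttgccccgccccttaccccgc
Gclm (chr3:122245307-122245556, plus strand): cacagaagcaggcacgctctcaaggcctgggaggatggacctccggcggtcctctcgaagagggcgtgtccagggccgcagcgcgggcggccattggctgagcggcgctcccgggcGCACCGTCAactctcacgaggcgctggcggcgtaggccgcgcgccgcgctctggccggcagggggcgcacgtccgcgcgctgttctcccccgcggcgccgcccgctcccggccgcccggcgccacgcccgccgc
G6pdx (chrX:74428881-74429130, minus strand): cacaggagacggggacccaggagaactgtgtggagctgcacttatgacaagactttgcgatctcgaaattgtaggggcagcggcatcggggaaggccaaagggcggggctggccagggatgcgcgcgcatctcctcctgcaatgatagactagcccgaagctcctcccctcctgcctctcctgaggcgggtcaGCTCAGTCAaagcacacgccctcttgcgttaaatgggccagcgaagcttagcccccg
In Nfe2l2 the match reads on the gene's strand and begins 240 bases before the start. It lies on the other strand in Gclm, beginning 134 bases before the start, and in G6pdx, beginning 57 bases before it. The matches of Srxn1, 29 bases after the start, and of the second of 3 Txnrd1 windows, 92 bases before its start, are given with 10 bases on each side.
Srxn1 (chr2:152105542-152105570, plus strand): gcagtgggcaGCTAGGTCAgagtgagaca
Txnrd1 (chr10:82859104-82859132, plus strand): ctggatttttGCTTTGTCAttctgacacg
No match in these 5 overlapped the letters TGANTCA of AP-1 or TGACGTCA of the cyclic AMP element. The windows of Nqo1 and Slc7a11 did not hold the letters, which says nothing of sequence outside these windows. Among 84 other genes of oxidative stress pathways that were listed for comparison, 73 had a window and 14 of them held the letters (19.2%).

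Library totals ran from 23070688 to 31837958 estimated counts. Gene-level counts of the targeted genes were not lower in the knockouts: Pkd1 had 23.9 to 36.4 CPM (counts scaled to library size) in Pkd1 KO and 13.9 to 21.62 CPM in Pkd1 control libraries, and Cep120 had 16.6 to 20.4 CPM in Cep120 KO and 13.7 to 18.7 CPM in Cep120 control libraries. Pkd1 was higher in Pkd1 KO (log2 fold change 0.74, edgeR adjusted p = 0.00952), where 22.1% of all genes were higher at an adjusted p under 0.05. Cep120 did not pass the test in Cep120 KO (0.14, edgeR adjusted p = 0.835). Gene-level counts do not separate deleted exons or recombined cells, so they do not check the genotypes, and the group names are those of the labels. Xist, which the inactive X makes, was at or below 0.169 CPM in all 3 Pkd1 KO libraries and at 49.97 to 136 CPM in their controls, so in the Pkd1 line genotype and sex cannot be told apart. In 4 libraries Xist and Y-linked counts both reached at least 12.01 CPM: Pkd1 control 3 (49.97 and 96.9 CPM), Cep120 KO 3 (184 and 16.6 CPM), Cep120 control 1 (59.8 and 28.3 CPM) and Cep120 control 2 (128 and 12.01 CPM). The number of genes detected also split the libraries, at 23544 to 25665 in the 3 Pkd1 KO libraries, Pkd1 controls 1 and 2 and Cep120 control 3, and 30321 to 32740 in the other 6. Pkd1 KO 3 alone held adrenal cortex markers, with a sum of 1113 CPM against 1.91 to 4.20 CPM elsewhere. Markers of whole kidney were present in every library, but in different amounts. All 6 proximal tubule markers fell in Pkd1 KO (sums of 396 to 576 CPM, against 4025 to 6753 CPM in Pkd1 controls), all 8 macrophage markers rose (692 to 1006 CPM, against 102 to 268 CPM), and none of these markers was at 0 everywhere. All 3 principal cell markers rose too (1560 to 3041 CPM, against 410 to 657 CPM in Pkd1 controls). So did all 3 fibroblast markers (2382 to 3937 CPM, against 786 to 1470 CPM). Distal convoluted tubule, thick ascending limb, podocyte and endothelial cell lists each had 2 of 3 markers lower and none higher. Intercalated cell markers had 3 of 5 lower and 1 higher. In bulk RNA, fewer cells of a type and less RNA per cell cannot be told apart.

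**Figure D1:**
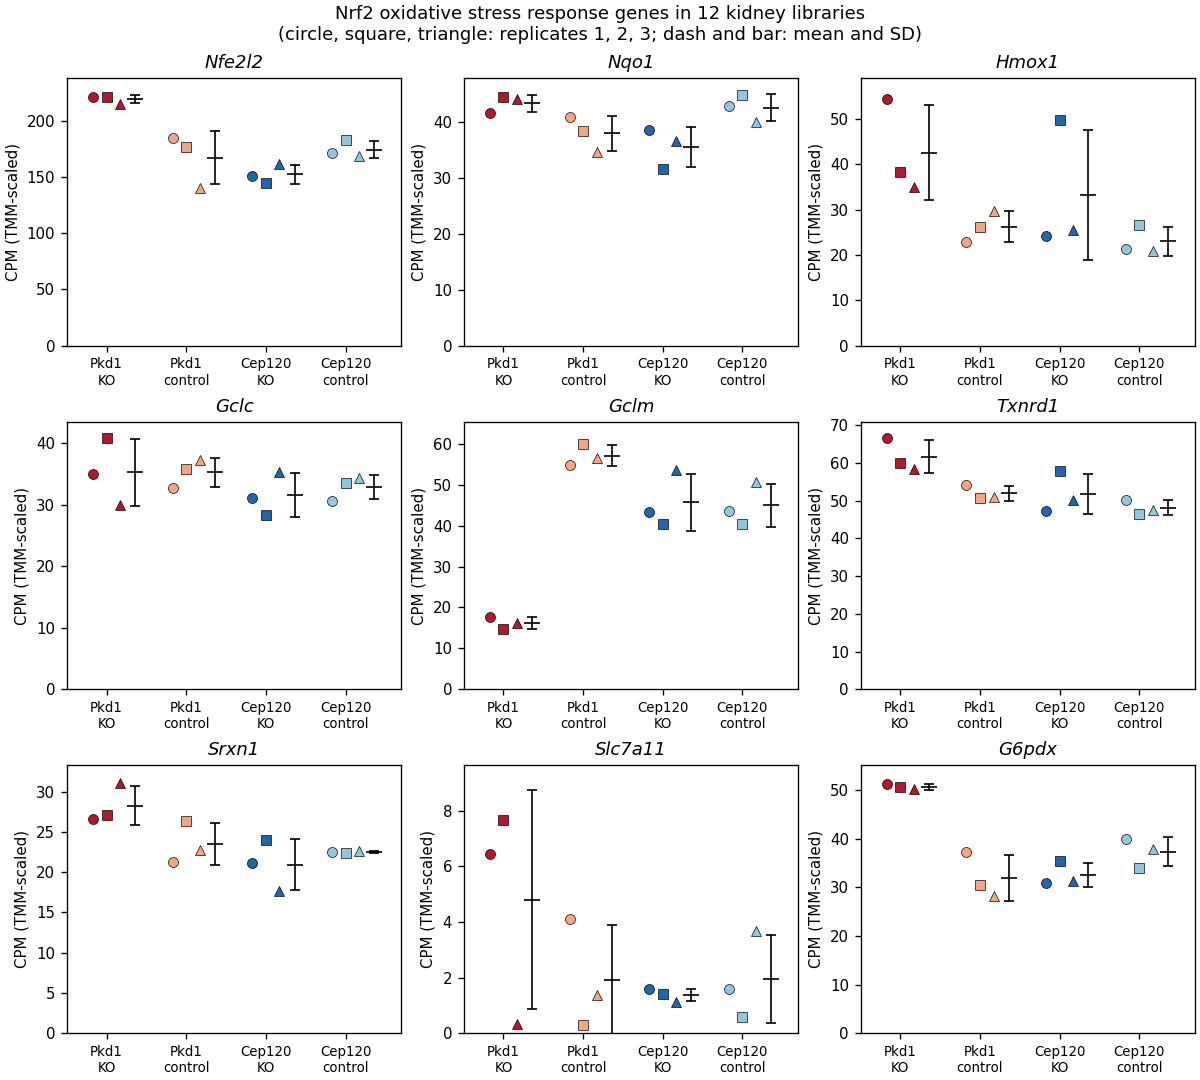
TMM-scaled CPM (vertical axes, from 0) of the 9 genes in each library, by group (horizontal axes); circles, squares and triangles are replicates 1, 2 and 3, and the dash and bar are the mean and SD of 3 libraries. Gclm stands at 14.7 to 17.6 CPM in the Pkd1 KO libraries and at 40.3 CPM or above in every other library, while Hmox1 is high in Pkd1 KO and in Cep120 KO 2.

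Of the 9 genes, Gclm, the modifier subunit of glutamate-cysteine ligase, showed the strongest response: it was 3.53-fold lower in Pkd1 KO than in Pkd1 control kidneys. G6pdx, Hmox1 and Nfe2l2 itself rose, by 1.58-fold, 1.62-fold and 1.31-fold. Nqo1, Txnrd1, Srxn1, Slc7a11 and Gclc did not pass the test. In all, 4 of the 9 genes were called at an edgeR adjusted p under 0.05, 3 higher and 1 lower. Over all genes tested in this comparison 44.4% were called, 22.1% higher and 22.4% lower, so the share among the 9 was that of the whole transcriptome. Without Pkd1 KO 3, the library with adrenal markers, the calls were again 4 of 9, where 7809 of all 20748 genes were called. Without Pkd1 KO 1 or without Pkd1 KO 2 they were 2 of 9, where 7344 of 20732 and 7277 of 20733 genes were called. With a term for Xist in the model Gclm alone was called, where 2002 of all 19890 genes were. Only Cep120 KO 3, with Xist, against Cep120 KO 1 and 2, without it, set this term. It rests on 1 library against 2 and does not separate sex from genotype in the Pkd1 line. The 3 Pkd1 KO libraries lay all above or all below the 3 controls for 7 of the 9 genes, against 53.0% of all genes (27.4% all above and 25.5% all below). The median log2 fold change of the 9 genes was 0.27, and that of all genes tested was -0.04. In Cep120 KO kidneys none of the 9 passed the test, as none of the 19890 genes did with edgeR (0%); 1201 genes had an unadjusted p under 0.05, DESeq2 called 21 genes, none of them among the 9, and limma-voom called 0.

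**Figure D2:**
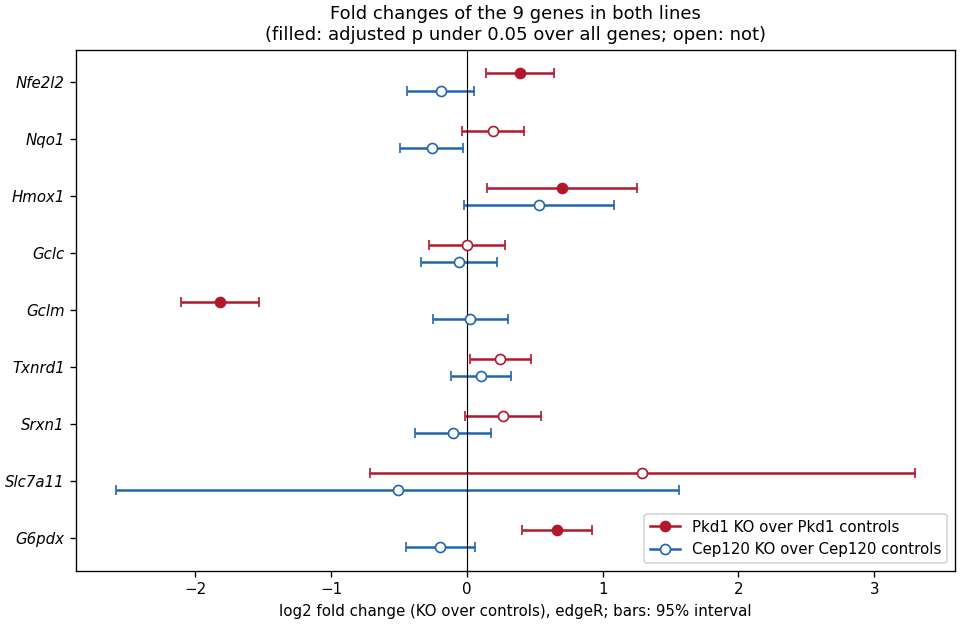
Log2 fold change of KO over controls (horizontal axis) for each of the 9 genes (vertical axis), with its 95% interval, in the Pkd1 line (red, upper point) and the Cep120 line (blue, lower point); filled points have an edgeR adjusted p under 0.05. Gclm at -1.82 lies far left of the others in the Pkd1 line, and every Cep120 point is open.

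Nfe2l2 (ENSMUSG00000015839), which encodes Nrf2, had 221, 221 and 215 CPM in Pkd1 KO libraries, against 185, 176 and 140.5 CPM in Pkd1 controls. Every KO library lay above every control, and the KO libraries were close together. The log2 fold change was 0.39 (SE 0.12, edgeR adjusted p = 0.0154). It was 0.25 (edgeR adjusted p = 0.0667) without Pkd1 control 3, the lowest library and 1 of the 4 with both Xist and Y-linked counts, and the call was also lost without Pkd1 KO 1 (edgeR adjusted p = 0.0574) or Pkd1 KO 2 (edgeR adjusted p = 0.0603). In the Cep120 line Nfe2l2 had 151, 145 and 161 CPM in KO libraries, against 171, 183 and 168 CPM in controls. All 3 KO libraries were below the controls here, with a log2 fold change of -0.19 (95% interval -0.44 to 0.06, edgeR adjusted p = 0.757). The change in the Pkd1 line exceeded that in the Cep120 line by a log2 difference of 0.58 with an SE of 0.16 (edgeR adjusted p = 0.0189). Since genotype and sex cannot be told apart in the Pkd1 line, they cannot be in this difference either. Difference tests of this kind called 28.1% of all genes, 13.9% higher and 14.2% lower, and 4 of the 9. Without Pkd1 KO 2 or without Cep120 KO 2 they called 2 of the 9, and 4399 of 20733 and 4947 of 20515 genes. For Nfe2l2 the difference was lost in these same fits (edgeR adjusted p = 0.0529 and 0.0542).

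The 2 annotated transcripts of Nfe2l2 did not move alike. Nfe2l2-201 codes for the protein. Nfe2l2-202 is non-coding, shares 126 bases of its first exon with Nfe2l2-201 and ends in an exon of 1321 bases outside the exons of Nfe2l2-201. If that exon lies within an intron, counts of Nfe2l2-202 and those of unspliced Nfe2l2 RNA cannot be told apart. Nfe2l2-202 held 11.9%, 12.5% and 8.97% of the gene's estimated counts in Pkd1 KO libraries, against 2.76%, 3.09% and 4.04% in Pkd1 controls. The groups did not overlap, and the lowest KO share was above the share in any of the other 9 libraries. In the Cep120 line the share was 2.97% ± 1.82 in KO and 4.12% ± 1.75 in control libraries (SD, n = 3 each). As CPM, Nfe2l2-202 averaged 24.4 ± 4.48 in Pkd1 KO and 5.41 ± 0.294 in Pkd1 controls, a ratio of 4.51, while the coding Nfe2l2-201 averaged 195 ± 1.06 and 162 ± 23.7 CPM, a ratio of 1.20 (SD, n = 3 each). The transcript values were described and not tested.

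**Figure D3:**
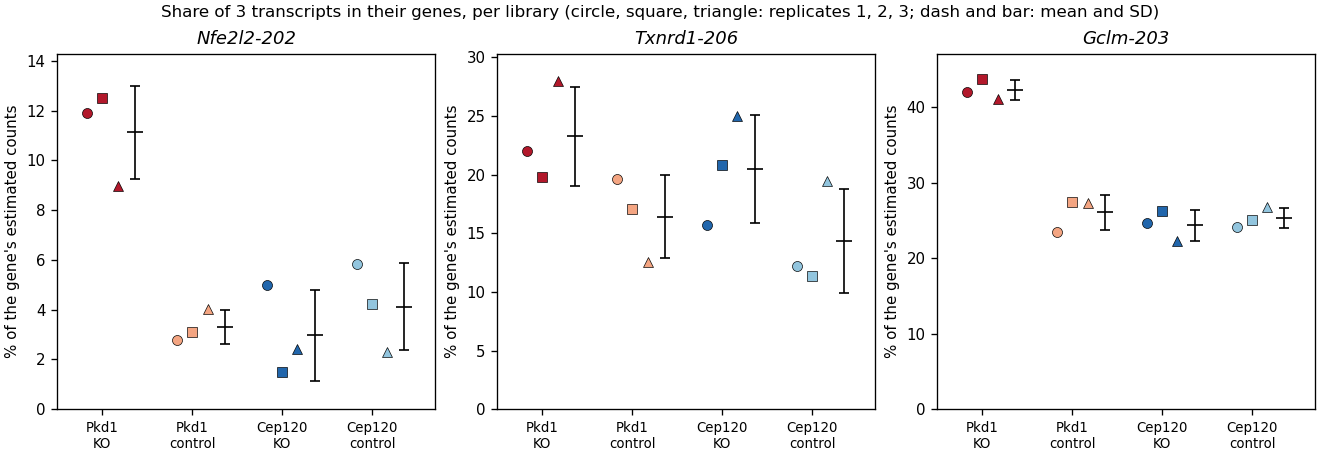
Share of the gene's estimated counts (percent, vertical axes from 0) held by Nfe2l2-202, Txnrd1-206 and Gclm-203 in each library, by group; symbols are replicates 1, 2 and 3, and the dash and bar are the mean and SD. Nfe2l2-202 and Gclm-203 have their highest shares in the 3 Pkd1 KO libraries, while the Txnrd1-206 groups lie closer together.

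Glutathione begins with glutamate-cysteine ligase, in which Gclc is the catalytic subunit and Gclm the subunit that raises its activity. Gclm (ENSMUSG00000028124) had 17.6, 14.7 and 16.1 CPM in Pkd1 KO libraries, against 54.9, 60.0 and 56.4 CPM in Pkd1 controls. The highest KO value was under the lowest of the other 9 libraries, which was 40.3 CPM in Cep120 KO 2. The log2 fold change was -1.82 (SE 0.13, edgeR adjusted p = 1.30e-06), and the call held in all 19 alternative analyses of this comparison. Cep120 KO libraries had 43.3, 40.3 and 53.6 CPM, against 43.7, 40.5 and 50.7 CPM in Cep120 controls. These groups overlapped fully, with a log2 fold change of 0.03 (95% interval -0.25 to 0.30). The lines differed by -1.85 (SE 0.18, edgeR adjusted p = 4.02e-05). Proximal tubule marker sums, which were likewise low in Pkd1 KO alone, moved with Gclm across groups. So did the sums of red blood cell, distal convoluted tubule, thick ascending limb, podocyte and endothelial cell markers. The part of these cells in the fall of Gclm was not tested.

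Gclc (ENSMUSG00000032350) had 35.1, 40.8 and 29.9 CPM in Pkd1 KO libraries, against 32.7, 35.8 and 37.3 CPM in Pkd1 controls. The groups overlapped and their means were both 35.3 CPM. On the log2 scale the difference had a 95% interval of -0.28 to 0.28. In the Cep120 line Gclc averaged 31.6 ± 3.52 CPM in KO and 32.9 ± 1.91 CPM in control libraries (SD, n = 3 each), again with overlap. The subunits were also compared within each library. Per transcript length, as deposited TPM (counts scaled to transcript length and library size), the ratio of Gclc to Gclm was 0.801, 1.10 and 0.752 in Pkd1 KO libraries, against 0.389, 0.333 and 0.355 in Pkd1 controls. It was 0.403, 0.368 and 0.458 in Cep120 KO libraries, against 0.403, 0.429 and 0.399 in Cep120 controls. Each Pkd1 KO ratio was above that of every other library.

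**Figure D4:**
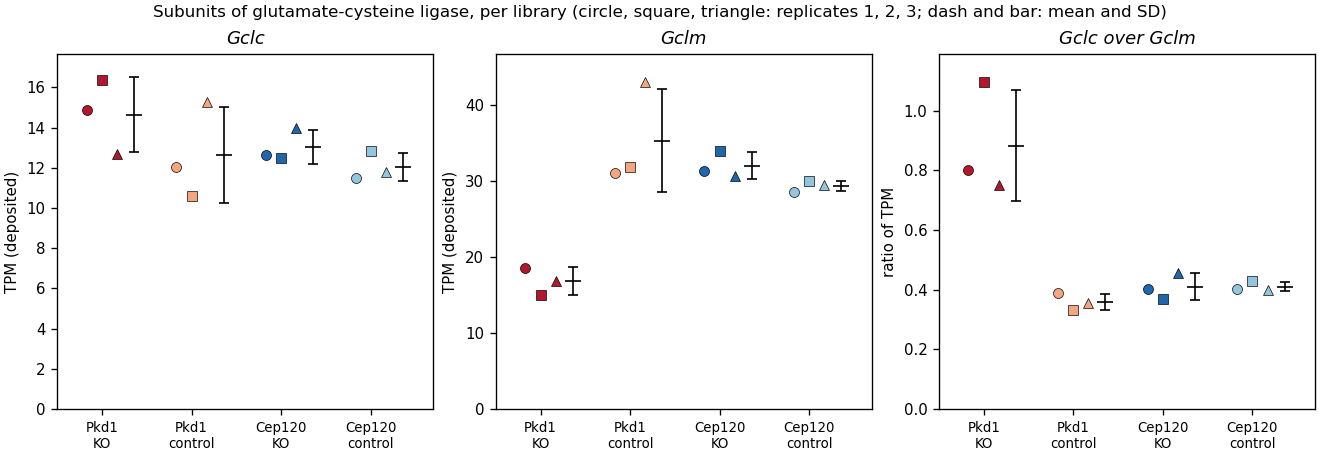
Deposited TPM of Gclc and Gclm and their ratio (vertical axes, from 0) in each library, by group; symbols are replicates 1, 2 and 3, and the dash and bar are the mean and SD. The ratio averages 0.883 in Pkd1 KO and 0.359 in Pkd1 control libraries, and 0.410 in both Cep120 groups.

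How far Gclm fell depended on the scale. In TPM, Gclm averaged 16.8 ± 1.83 in Pkd1 KO and 35.3 ± 6.72 in Pkd1 control libraries (SD, n = 3 each), 2.10-fold lower, while in CPM it was 3.53-fold lower. Over the genes tested, the median TPM ratio of Pkd1 KO to Pkd1 controls was 1.13, and that of Cep120 KO to Cep120 controls was 1.14. The median gene thus had a higher TPM in KO in both lines. For Gclm, 6 transcripts were analysed, and they held 26.2% to 59.1% of the gene's estimated counts. Gclm-203 is a coding transcript with 459 coding bases and a short last exon of 716 bases. It averaged 6.82 ± 0.515 CPM in Pkd1 KO and 14.9 ± 1.86 CPM in Pkd1 controls, 2.19-fold lower. The counts outside these 6 transcripts averaged 7.10 ± 0.629 CPM in Pkd1 KO and 38.0 ± 1.93 CPM in Pkd1 controls, 5.36-fold lower. The only Gclm transcript annotated besides these 6 is Gclm-201, of 5589 bases, with 822 coding bases and a last exon of 4505 bases. As a share of the gene, Gclm-203 made up 42.3% ± 1.35 in Pkd1 KO, against 26.1% ± 2.29 in Pkd1 controls (SD, n = 3 each), and it held 24.3% ± 2.01 in Cep120 KO and 25.3% ± 1.32 in Cep120 control libraries. Gclm exons overlap those of Gm17494 and Gm6061 by 296 bases, and reads there cannot be told apart: Gm6061 lies on the same strand, and for Gm17494, on the other, the strand setting of the counting was not given in the sources used here.

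Slc7a11 (ENSMUSG00000027737), the cystine carrier that brings in the cysteine precursor for glutathione, was the weakest of the 9 genes. It had 6.43, 7.67 and 0.323 CPM in Pkd1 KO libraries, against 4.10, 0.301 and 1.36 CPM in Pkd1 controls. Replicates of both groups spread widely, with Pkd1 KO 3 nearly as low as the lowest control, and the groups overlapped. The log2 fold change of 1.29 had a 95% interval of -0.72 to 3.30 (edgeR adjusted p = 0.272), so the difference was within the spread between libraries, whose counts of this gene ran from 6 to 238. Without a filter on low counts the same test called it (SE 0.35, edgeR adjusted p = 0.00165), while the other alternatives gave edgeR, DESeq2 or limma adjusted p of 0.0765 to 0.785. Cep120 KO libraries had 1.58, 1.3996 and 1.14 CPM, against 1.60, 0.570 and 3.69 CPM in Cep120 controls, and these values overlapped too. Part of the few counts was not of the coding transcript: Slc7a11-204, a single-exon retained intron, had 15.5 to 23.5 counts in Cep120 KO libraries and 2 to 15.2 counts in their controls, while it had none in Pkd1 KO libraries and in Pkd1 controls 1 and 2, and 15.9 in Pkd1 control 3. The counts followed the number of genes detected: 0 to 2 in the 6 libraries with fewer genes detected, which include Cep120 control 3, and 7 to 23.5 in the 6 with more. The part of this split in the gene's values was not tested.

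G6pdx (ENSMUSG00000031400), the X-linked glucose-6-phosphate dehydrogenase that opens the pentose phosphate pathway and yields NADPH, had 51.3, 50.5 and 50.1 CPM in Pkd1 KO libraries, against 37.3, 30.5 and 28.1 CPM in Pkd1 controls. All KO libraries lay above all controls, and close to each other. Its log2 fold change was 0.66 (SE 0.12, edgeR adjusted p = 0.000644). With a term for Xist in the model the estimate was 0.58 and the call was lost (edgeR adjusted p = 0.118). Cep120 KO libraries had 31.0, 35.4 and 31.3 CPM, against 40.0, 34.1 and 37.9 CPM in Cep120 controls. These groups overlapped through Cep120 KO 2, with a log2 fold change of -0.20 (95% interval -0.45 to 0.06). The lines differed by 0.86 (SE 0.17, edgeR adjusted p = 0.00261), a call that held in all 24 alternatives. None of them separates genotype from sex in the Pkd1 line. G6pdx exons overlap Ikbkg on the other strand by 418 bases. Whether these counts separate them is unknown, as the strand setting of the counting was not given in the sources used here.

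Hmox1 (ENSMUSG00000005413), the inducible haem oxygenase, had 54.4, 38.2 and 35.0 CPM in Pkd1 KO libraries, against 22.8, 26.2 and 29.7 CPM in Pkd1 controls. Groups did not overlap, but Pkd1 KO 1 stood well above the others. The log2 fold change was 0.70 (SE 0.25, edgeR adjusted p = 0.0404). Without Pkd1 KO 1 it was 0.47 (edgeR adjusted p = 0.184). The call was also lost without Pkd1 KO 2 or Pkd1 control 1 or 2 (edgeR adjusted p = 0.0588, 0.118 and 0.0871). With a term for Xist the log2 fold change was 0.17 (edgeR adjusted p = 0.846). Cep120 KO 3 (25.6 CPM) against Cep120 KO 1 and 2 (24.2 and 49.6 CPM) set that term. The fall to 0.17 thus draws on the high Cep120 KO 2 and is no adjustment for sex within the Pkd1 line. Macrophages are rich in this enzyme. The summed macrophage markers ran in the same order as Hmox1 within both Pkd1 groups, but within neither Cep120 group. They were at 1006, 953 and 692 CPM in Pkd1 KO 1, 2 and 3, against 102, 128 and 268 CPM in Pkd1 controls 1, 2 and 3. Their part in the result was not tested.

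In the Cep120 line Hmox1 was high in 1 library, with 24.2, 49.6 and 25.6 CPM in KO libraries, against 21.4, 26.7 and 20.8 CPM in controls. Only Cep120 KO 2 exceeded the highest control, and the log2 fold change of 0.53 was not called (95% interval -0.02 to 1.08, edgeR adjusted p = 0.757). Without Cep120 KO 2 it was 0.12 (edgeR adjusted p = 0.999). Macrophage sums were 245, 228 and 128 CPM in Cep120 KO 1, 2 and 3, against 241, 230 and 118 CPM in Cep120 controls 1, 2 and 3. They did not run in the order of Hmox1 within either group. The macrophage sum of Cep120 KO 2, 228 CPM, lay within the 118 to 241 CPM of the Cep120 controls, while its fibroblast sum of 1522 CPM was above their 656 to 887 CPM. The part of these cells in the Hmox1 value was not tested. The changes of Hmox1 in the lines differed by 0.17 (95% interval -0.61 to 0.95).

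Nqo1 (ENSMUSG00000003849), a quinone reductase often read as an Nrf2 target, had 41.6, 44.4 and 44.0 CPM in Pkd1 KO libraries, against 40.9, 38.3 and 34.7 CPM in Pkd1 controls. KO libraries were all above controls by little, and the log2 fold change of 0.19 did not pass the test (95% interval -0.04 to 0.42, edgeR adjusted p = 0.158). In Cep120 KO libraries it had 38.5, 31.5 and 36.6 CPM, against 42.8, 44.8 and 40.0 CPM in Cep120 controls. These were all below, with a log2 fold change of -0.26 that was not called (95% interval -0.49 to -0.03, edgeR adjusted p = 0.757). Nqo1 and Nfe2l2 were the 2 of the 9 genes without overlap in the Cep120 line, where 16.5% of all genes had none (8.64% with KO above and 7.88% with KO below). The lines differed by 0.45 for Nqo1 (SE 0.15, edgeR adjusted p = 0.0407), and this call was lost in 19 of 24 alternatives, with adjusted p from 0.0342 to 0.185.

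Txnrd1 (ENSMUSG00000020250), the cytosolic thioredoxin reductase, had 66.6, 60.0 and 58.3 CPM in Pkd1 KO libraries, against 54.2, 50.6 and 50.8 CPM in Pkd1 controls. The groups did not overlap, yet the log2 fold change of 0.25 did not pass the test (95% interval 0.03 to 0.47, edgeR adjusted p = 0.0663). With the deposited log2 CPM as input it did (limma adjusted p = 0.0481). In the Cep120 line it had 47.3, 57.8 and 50.2 CPM in KO libraries, against 50.3, 46.6 and 47.5 CPM in controls, and Cep120 KO 2 was again the highest. Txnrd1-206, which starts from another first exon but has the coding exons of the main transcript Txnrd1-201, held 22.0%, 19.8% and 27.9% of the counts in Pkd1 KO libraries, against 19.7%, 17.04% and 12.6% in Pkd1 controls. Its share was 15.7%, 20.8% and 25.0% in Cep120 KO libraries, against 12.2%, 11.4% and 19.5% in Cep120 controls. The nearest values of the Pkd1 groups almost touched, and the Cep120 groups overlapped.

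Srxn1 (ENSMUSG00000032802), which repairs overoxidised peroxiredoxins, had 26.7, 27.1 and 31.0 CPM in Pkd1 KO libraries, against 21.3, 26.4 and 22.8 CPM in Pkd1 controls. KO libraries were above controls by a narrow margin, and the log2 fold change of 0.27 was not called (95% interval -0.01 to 0.55, edgeR adjusted p = 0.107). With a term for Xist it was -0.08. Cep120 KO libraries had 21.1, 24.0 and 17.7 CPM on both sides of the controls, which lay at 22.5, 22.4 and 22.6 CPM. That difference of -0.10 had a 95% interval of -0.38 to 0.18.

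Between the 9 genes, levels were compared per transcript length, as TPM averaged over the 12 libraries. Nfe2l2 was highest at 95.8 TPM, and its lowest library (70.6 TPM) exceeded every value of the other 8 genes. Below it came Nqo1 (32.1 TPM), Gclm (28.3 TPM), Hmox1 (25.5 TPM), Txnrd1 (19.2 TPM), G6pdx (17.5 TPM), Gclc (13.1 TPM) and Srxn1 (12 TPM). Each neighbouring pair from Nqo1 to Srxn1 overlapped in its range over libraries. Slc7a11 was lowest at 0.496 TPM, and its highest library, at 1.12 TPM, was under the lowest value of Srxn1 (9.16 TPM). Across libraries the 9 genes did not follow 1 pattern. Pearson's r of log2 CPM over the 12 libraries, which share groups and scaling, was 0.86 for Nfe2l2 with G6pdx, 0.85 for Hmox1 with Txnrd1, 0.80 for Nfe2l2 with Nqo1 and -0.19 for Hmox1 with Nqo1, and Gclm had a negative r with each of the other 8 genes. Among 12627 genes outside the 9, the most alike by this measure were Nus1 (r = 0.991) and Aldh5a1 (0.990) for Gclm, Papss1 (0.957) and Smug1 (0.955) for Nfe2l2, Zfp82 (0.967) and Scnn1g (0.964) for G6pdx, and Cep164 (0.957) and Cdk6 (0.945) for Hmox1. The highest values were lower for Txnrd1 (Ddx31, 0.946, and Nek5, 0.936), Srxn1 (Plekhj1, 0.935, and Zfp146, 0.923), Nqo1 (Lypd2, 0.912, and Pkm, 0.903), Slc7a11 (Sowahc, 0.845, and Zc3h18, 0.816) and Gclc (Tigd2, 0.814, and Marveld3, 0.803).

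The 84 other genes of the response and of neighbouring pathways were described by 9 lists, of which 79 genes were tested. In Pkd1 KO kidneys 29 were higher and 24 lower, 67.1% of those tested against the 44.4% of all genes, with a median log2 fold change of -0.03. With a term for Xist in the model, 14 of the 79 were called, and 2002 of all 19890 genes. Among partners and regulators of Nrf2, 6 of 11 were higher and none lower, against 22.1% higher and 22.4% lower of all genes, with a list median of 0.40. Mafk, a small Maf partner of Nrf2, averaged 47.0 ± 5.75 CPM in Pkd1 KO and 16.9 ± 1.16 CPM in Pkd1 controls (SD, n = 3 each), a log2 fold change of 1.47 with an SE of 0.14 (edgeR adjusted p = 7.20e-06). Sqstm1, the p62 protein that draws Keap1 away, rose by 0.58, and the related factor Nfe2l3 by 1.79. Keap1 itself had 53.7 ± 2.75 CPM in Pkd1 KO and 44.1 ± 4.98 CPM in Pkd1 control libraries (SD, n = 3 each) and did not pass the test (0.28, edgeR adjusted p = 0.117).

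Of the glutathione genes, 6 of 12 were lower and 3 higher in Pkd1 KO, against 22.4% lower and 22.1% higher of all genes, with a median of -0.59. The falls included Ggct (-1.84) and Ggt1 (-1.62), enzymes of glutathione breakdown, and Gss (-1.46), the synthetase that acts after glutamate-cysteine ligase. Thioredoxin and peroxiredoxin genes had 5 of 11 lower and 1 higher, with a median of -0.27; the 6 called of 11 (54.5%) are near the 44.4% of all genes. Prdx5 (-1.07) and Prdx1 (-0.82), which reduce peroxides, fell, and Txnip, an inhibitor of thioredoxin, rose by 1.65. Among the superoxide dismutase and catalase genes, 3 of 4 fell and none rose, where 22.4% of all genes fell: Sod2, the mitochondrial dismutase, by 1.34 on the log2 scale, catalase (Cat) by 1.10 and the secreted Sod3 by 0.92. Many of these enzymes are abundant in proximal tubule, whose markers also fell in Pkd1 KO, and their part in these counts was not tested.

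Of 7 further genes of NADPH supply, 2 rose and 3 fell in Pkd1 KO, against 22.1% higher and 22.4% lower of all genes. H6pd, the dehydrogenase of the endoplasmic reticulum, rose by 1.80 and Pgd, the next NADPH-yielding enzyme after G6pdx, by 0.67, while Idh1 fell by 1.20. Among 8 genes of haem and iron handling 3 fell and 1 rose, 50% called, which is near the 44.4% of all genes. Tfrc, the transferrin receptor carried by red cell precursors, fell by 2.60, together with all 5 red blood cell markers, whose sums were 490 to 1451 CPM in Pkd1 KO and 5987 to 10465 CPM in Pkd1 controls; their part was not tested. Ftl1, the ferritin light chain, fell by 0.66. Blvrb, a biliverdin reductase, rose by 0.40, a call that was lost in 12 of 19 alternatives. Quinone and aldehyde detoxification was split, with 3 of 9 higher and 3 lower, against 22.1% higher and 22.4% lower of all genes. Among them were Akr1b8, an aldose reductase relative (2.45), Nqo2, the sister of Nqo1 (-0.76), and the carbonyl reductase Cbr1 (-1.23).

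Enzymes that make reactive oxygen rose in Pkd1 KO in 5 of 7 cases and fell in 1, against 22.1% higher and 22.4% lower of all genes, with a median of 1.51. Cybb, the catalytic subunit of the phagocyte oxidase, averaged 49.4 ± 8.06 CPM in Pkd1 KO and 11.6 ± 7.17 CPM in Pkd1 controls (SD, n = 3 each), a log2 fold change of 2.09, and its cytosolic partner Ncf1 rose by 2.12. Cyba, the other membrane subunit, fell by 0.99. The phagocyte subunits are typical of macrophages, whose 8 markers rose, and that part was not tested. Genes of the Atf4 amino acid response, which also drives Slc7a11, had 8 of 10 higher and none lower, against the same 22.1% and 22.4% of all genes, with a median of 0.65. Asns, the asparagine synthetase, averaged 46.0 ± 0.993 CPM in Pkd1 KO and 14.2 ± 3.27 CPM in Pkd1 controls (SD, n = 3 each; log2 fold change 1.71), Chac1, which degrades glutathione, rose by 3.04 at a low level, and Atf4 itself rose by 0.57.

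In Cep120 KO kidneys none of the 79 genes was called. Their log2 fold changes ran from -0.74 to 0.38 with a median of -0.17, where the median of all genes was 0.01. All 11 thioredoxin and peroxiredoxin genes were below 0, from -0.44 to -0.14, and 7 of the 11 had every KO library below every control, against 7.88% of all genes. Txnrd3 (-0.44) and Prdx4 (-0.38) had the smallest p in that list (edgeR adjusted p = 0.757 for both). Mafg, a small Maf partner, had the smallest p among the Nrf2 partners, with 67.7 ± 2.24 CPM in Cep120 KO and 51.9 ± 4.05 CPM in Cep120 controls (SD, n = 3 each; log2 fold change 0.38, edgeR adjusted p = 0.757).

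**Figure D5:**
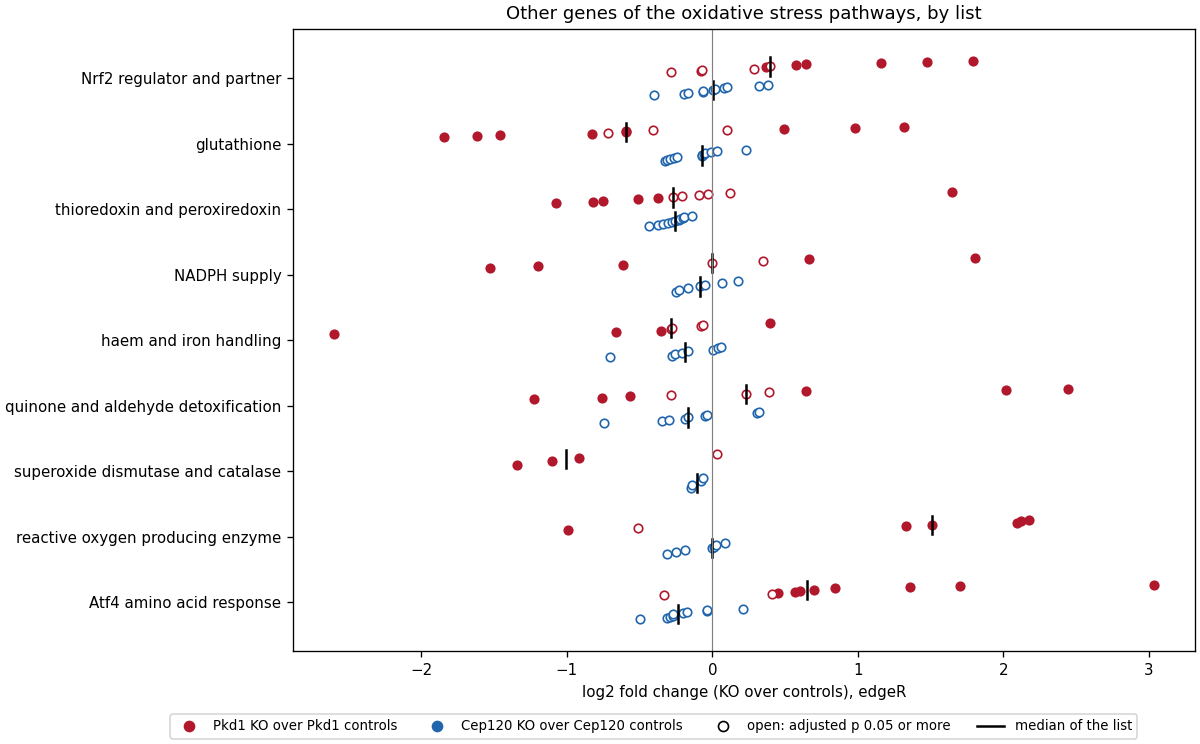
Log2 fold change of KO over controls (horizontal axis) for the 79 tested pathway genes, by list (vertical axis), in the Pkd1 line (red, upper row of each list) and the Cep120 line (blue, lower row); filled points have an edgeR adjusted p under 0.05 and black bars are list medians. Pkd1 points spread from -2.60 to 3.04, while every Cep120 point is open and lies between -0.74 and 0.38.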

How the data were processed

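The 12 libraries were made from RNA of whole mouse kidney at P15 by SMARTer cDNA synthesis, per the labels' protocols. Per the submitters' processing notes, Salmon 0.8.2, featureCounts 1.4.6-p5, Subread, STAR 2.5.1a and bcl2fastq were used with the mm9 build, with no word on which made a given file. The deposited gene and transcript tables hold estimated counts, which were rounded for tests. Deposited TPM were used for levels between genes and deposited log2 CPM as an alternative input, with a prior count not given in the sources used here. Strand use in counting was not given in the sources used here.

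The table's 55774 lines hold 55487 gene IDs, and 287 repeated lines were dropped. Groups were read from the titles. Genes kept by filterByExpr were fitted with edgeR 4.0.16 (R 4.3.3; TMM scaling, quasi-likelihood test, 4 groups in 1 fit), with Benjamini-Hochberg adjustment over all genes and a threshold of 0.05. Intervals are 95% intervals of the fold change. The scripts were tested on simulated data. The alternatives, 25 planned and 1 added after seeing the data, included DESeq2 1.42.0 and limma 3.58.1. Members and lists were chosen with earlier results of these data known, and give no independent support. Named pathway genes are, per list, the up to 3 smallest p in the Pkd1 and up to 2 in the Cep120 comparison, of which the text gives a part. For each of the 9 genes the 2 with the highest Pearson r are named. Library totals of 23070688 to 31837958 limit precision for weak genes, and the intervals of weak genes reflect counting error and the spread between libraries. Promoter windows are from RefSeq and transcript structures from GENCODE M21, both on GRCm38; Hmox1 and Gclc have no sequence shown. Transcript shares are descriptions without a test.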

Additional observations from a re-analysis of the deposited data

Results flagged for a closer look

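For 4 of the 9 genes the change from controls to KO differed between the lines by an interaction test (edgeR, adjusted over all genes). As Pkd1 change minus Cep120 change on the log2 scale, Gclm differed by -1.85, G6pdx by 0.86, Nfe2l2 by 0.58 and Nqo1 by 0.45. Over all genes 28.1% were called in this test, 13.9% higher and 14.2% lower. Gclm fell in Pkd1 KO and had overlapping groups in Cep120 KO. G6pdx and Nfe2l2 rose in Pkd1 KO, while Nqo1 passed neither test within a line. The differences of Gclm and G6pdx held in all 24 alternatives, that of Nfe2l2 was lost in 3 and that of Nqo1 in 19. Genotype and sex cannot be told apart in the Pkd1 line, and none of these alternatives separates them in the difference between lines.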

How the results depend on the processing

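With 3 libraries a group, small changes of the weaker genes cannot be resolved, and genotype and sex cannot be told apart in the Pkd1 line. The calls of Gclm held throughout, while those of Nfe2l2 and Hmox1 in the Pkd1 line were each lost in 7 of 19 alternatives. With a term for Xist, the Pkd1 comparison called 2002 genes, 14 pathway genes and 1 of the 9. That term rests on Cep120 KO 3 against Cep120 KO 1 and 2, so it is no adjustment for sex within the Pkd1 line. At an adjusted p under 0.01 the 9 gave 2 calls in the Pkd1 comparison, where 5938 genes were called. In the difference between lines they gave 2, where 2751 genes and 15 pathway genes were called. In the Cep120 comparison DESeq2 called 21 genes, a test without a filter 344 with 2 pathway genes (Tfrc and Akr1b3), and leaving out both control libraries numbered 3 1. Without Cep120 KO 2 and Pkd1 control 3 together, an alternative added after seeing the data, the Cep120 comparison called 2 genes. The difference then called 5515 genes and 2 of the 9. Leaving out 1 library at a time gave 0 to 2 genes in the Cep120 comparison, 2 to 4 of the 9 in the Pkd1 comparison and 2 to 4 in the difference. Over all genes these fits called 7277 to 8680 in the Pkd1 comparison and 4225 to 5781 in the difference. The cause of these shifts was not tested.

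Values near 0 changed sign. Gclc in the Pkd1 comparison was -0.0307 with RLE scaling, -0.0302 with DESeq2, -0.0867 with upper quartile scaling, -0.0060 with voom, -0.0532 with a filter of 5 CPM, -0.0365 with the line alone and -0.131 to 0.0912 with 1 library left out; Srxn1 was -0.0816 with the Xist term. In the Cep120 comparison Gclc was 0.0718 with the deposited log2 CPM, 0.10 with the Xist term, 0.0164 without Cep120 KO 2 and Pkd1 control 3, and -0.147 to 0.0147 with 1 library left out. Srxn1 was 0.0192 with the deposited log2 CPM, and Slc7a11 was 0.13 with a term for detected genes and 0.34 without both controls numbered 3. Akr1b3 was 0.24 with the Xist term, Sod1 0.0137 without both controls numbered 3, Sod2 0.0072 with the detected-gene term and Xdh 0.16 without the 2 libraries. With 1 library left out, Slc7a11 ran from -0.95 to 0.34, Gclm from -0.11 to 0.12, Srxn1 from -0.21 to 0.0026, Sod1 from -0.28 to 0.0135 and Xdh from -1.34 to 0.16. The difference between lines of Gclc was -0.0516 with upper quartile scaling, -0.0345 with the 5 CPM filter and -0.0715 to 0.15 with 1 library left out, and that of Hmox1 ran from -0.0615 to 0.57. The deposited log2 CPM moved the median of all genes by 0.10 in the Pkd1 and 0.14 in the Cep120 comparison. Higher against lower calls in the Pkd1 comparison were 4388 to 4451, 3779 to 5095 with upper quartile scaling and 4930 to 3810 with the deposited log2 CPM.

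Replicate numbers are shared between groups, but deviations of same-numbered libraries correlated at -0.14 to 0.18, so the numbers were not taken as pairs. With the number as a replicate block, 7835 genes and 4 of the 9 were called in the Pkd1 comparison, 0 in the Cep120 comparison, and 4472 genes and 3 of the 9 in the difference, and Gclc in the Pkd1 comparison was -0.0084.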
